A study of Saccharomyces cerevisiae with 14 samples.

Results

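Removal of the amino-terminal tail of histone H4 was compared with full-length H4 in 6 of the 14 expression arrays of the series, 3 of the deletion strain and 3 of its wild type. The strain called H4del lacked residues 2 to 26 of H4, and the strain called H4WT carried the full-length protein. Both strains of budding yeast, Saccharomyces cerevisiae, kept their H4 gene on a plasmid marked with TRP1 and were grown to mid-log phase in synthetic medium without tryptophan and uracil. The other 8 arrays came from a strain lacking residues 1 to 28 of histone H3 (H3del, 4 arrays) and from its wild type (H3WT, 4 arrays), congenic with the H4 strains but with a LEU2 plasmid and medium without leucine and uracil. Members were chosen by the titles of the arrays alone. All 9275 probe sets that are not controls were measured, each by 1 signal per array, and the 6492 of them bright enough on average over the 14 arrays were tested. The labels state neither the mating type of the strains nor whether the 3 arrays of a strain were hybridized with RNA of different cultures, so the p-values rest on array-to-array spread that could be wholly technical. The number of arrays limits the precision of every value.

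The H4 tail is a short basic extension of the nucleosome. Its lysines are acetylated in active chromatin, and in yeast the unacetylated tail, around lysine 16, is bound by the Sir3 protein of silent chromatin. Silent chromatin covers the mating-type cassettes HML and HMR and the chromosome ends, while the expressed cassette at MAT sets the cell type. An alpha cell expresses alpha1, which turns on alpha-specific genes, and alpha2, which turns off a-specific genes. In a diploid the a1 protein joins alpha2 to form a repressor of haploid-specific genes and of alpha1 itself.

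The arrays of a group were alike, with Spearman correlations over the tested probe sets between 0.931 and 0.982, against 0.885 to 0.929 between an H4del and an H4WT array. H4WT replicate 1 and H4del replicates 1 and 2 were hybridized on the same day, H4WT replicate 2 alone on another day and fluidics station, and replicate 3 of every group on a further day. The lower quartile of signal was 88.8, 69.2 and 81.9 on the H4WT arrays and 110.0, 105.8 and 103.8 on the H4del arrays, so the dim end of the scale was higher on every H4del array. The ratio of the 3' to the 5' actin control lay between 1.48 and 1.82 on the H4WT arrays and between 1.54 and 1.99 on the H4del arrays, and that of TBP between 2.68 and 3.2 and between 3.21 and 4.68. The TBP ratio of every H4del array therefore lay above that of every H4WT array, and its part in the results was not tested.

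HHF2/HHF1, a probe set for both genes of histone H4, had signals of 6537.3, 7119.1 and 8233.7 on the H4WT arrays and 2855.6, 4263.4 and 5020.0 on the H4del arrays. Its log2 change was -0.88 ± 0.23 (SE, limma adjusted p = 0.0187), and the groups did not overlap. The call was lost without H4del replicate 1 (adjusted p = 0.0862) and without H4WT replicate 2 (0.0513). The position of its probes in the coding sequence was not known, so it does not check the labels. Of the 8 plasmid and strain marker genes 0 passed the test, and TRP1, the plasmid's marker, gave 0.21 ± 0.28 (adjusted p = 0.646). With the replicate block 2 of the 8 passed, and 2 passed without H4del replicate 3, among them LEU2 at -1.25 (adjusted p = 0.0119, against a change of -0.65 over all arrays).

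In all, 1134 of 6492 probe sets, or 17.5%, passed a limma adjusted p of 0.05, with 506 higher (7.79%) and 628 lower (9.67%) in H4del. Taking the brightest probe set for each gene, 797 of 5121 genes passed (15.6%), of which 232 rose (4.53%) and 565 fell (11.0%), and with the replicate block 1558 passed (30.4%). The median log2 change of all genes was -0.149. With the replicate number as a block 2130 probe sets passed (32.8%), 908 higher (14%) and 1222 lower (18.8%), and the 1134 were all among them. Without H4WT replicate 1, 2 or 3 the number was 670, 585 or 1498, and without H4del replicate 1, 2 or 3 it was 662, 648 or 792. The groups did not overlap in 2164 probe sets (33.3%), 930 above (14.3%) and 1234 below (19.0%), among them 1092 of the 1134 called (96.3%).

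The a1 gene, HMRA1, which encodes the homeodomain partner of alpha2 and stands at the silent locus HMR, was nearly dark in the wild type and bright in the mutant. Its probe set gave 39.0, 6.1 and 52.8 on the H4WT arrays and 861.9, 935.1 and 475.6 on the H4del arrays. Every H4del array was above every H4WT array by several-fold, and the log2 change was 4.06 ± 0.38 (SE, limma adjusted p = 1.54e-05) in the fit of all 9275 probe sets, since its mean lay under the filter on dim probe sets. In that fit 15.6% of probe sets passed, 8.87% higher and 6.73% lower. The other HMRA1 probe sets were dimmer and moved the same way, from means of 5.93 ± 4.71 (SD, n = 3) to 32.4 ± 2.55 and from 1.30 ± 1.65 to 54.3 ± 12.3, with log2 changes of 1.13 and 1.96. The rise was also found within a day, at 4.03 on the day shared by H4WT replicate 1 and H4del replicates 1 and 2, and at 2.82 on the day shared by the replicates 3. In H3del HMRA1 gave 0.48 ± 0.33, with 25, 20.7, 29.7 and 46.4 on its arrays, so that no H3del array came near an H4del array. The labels do not state the mating type, so an a1 transcript from HMR could not be told from one from MAT.

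Transcripts that MAT shares with HML could not be assigned to a locus. Both probe sets that match MATALPHA1 and HMLALPHA1, the copies of the alpha1 gene, fell, with log2 changes of -1.35 ± 0.25 (SE, limma adjusted p = 0.00279) and -1.13 ± 0.25 (adjusted p = 0.00685). The brighter of them gave 1985.0, 2152.9 and 2310.8 on the H4WT arrays and 805.4, 886.0 and 1287.1 on the H4del arrays, without overlap. Probe sets matching HMRA2 together with both copies of the alpha2 gene gave 0.00 ± 0.17 and 0.08 ± 0.31 and did not pass. Around the silent loci, by the gene order of the R64 assembly, 5 genes beside HML and 10 beside HMR could be read from a separate probe set among the 6 nearest protein-coding genes on a side. None of these 15 genes passed in limma, with log2 changes from -0.65 to 0.44 beside HML and from -0.54 to 1.28 beside HMR. The highest of these, YCR099C, had an adjusted p of 0.0522 in the fit of all probe sets.

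All 4 alpha-specific genes fell, where 11.0% of all genes did, with a median log2 change of -3.45 against -0.149 over all genes. MF(ALPHA)1, the main gene of the alpha-factor pheromone, had signals of 17730.9, 22692.9 and 25945.5 on the H4WT arrays and 1364.6, 1239.1 and 1512.9 on the H4del arrays, a log2 change of -3.98 ± 0.15 (SE, limma adjusted p = 1.91e-10). MF(ALPHA)2, the minor gene, went from 5082.5, 4844.2 and 4139.5 to 281.3, 201.0 and 217.3, or -4.24 ± 0.24. STE3, the receptor for a-factor, went from 3669.2, 3180.9 and 2420.4 to 477.3, 392.9 and 308.8. Every H4del array thus lay below every H4WT array for these 3 genes, with 7.58-fold to 18.9-fold lower means on the log2 scale. SAG1, the alpha-agglutinin of the cell surface, fell 5.95-fold. AFB1, which encodes the a-factor barrier protein made by alpha cells, had a log2 change of -2.38 ± 0.17 (limma adjusted p = 3.33e-07). All 4 alpha-specific genes passed with any of the 6 arrays left out.

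The haploid-specific genes fell as a whole list: 12 of 12 passed, against 11.0% of all genes falling. Their median log2 change was -2.55, against -0.149 over all genes, and all 12 passed with any of the 6 arrays left out. The pheromone pathway begins with a G protein whose 3 subunits are encoded by GPA1, STE4 and STE18. STE18, the gamma subunit, gave 364.2, 530.0 and 463.0 on the H4WT arrays and 30.1, 48.2 and 33.6 on the H4del arrays, a log2 change of -3.11 ± 0.22 (SE, limma adjusted p = 3.24e-07). STE4, the beta subunit, had -2.02 ± 0.21, and GPA1, the alpha subunit, had -2.23 ± 0.45. Downstream, the scaffold STE5 had -1.79 ± 0.24, the transcription factor STE12 had -1.29 ± 0.24, and SST2, which dampens the G protein's signal, had -1.96 ± 0.39. FUS3, the MAP kinase of the pathway, went from 1276.8, 1575.1 and 1002.9 to 61.0, 49.8 and 86.6, or -3.98 ± 0.26. Every one of these genes was lower on each H4del array than on each H4WT array.

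Among the other haploid-specific genes RME1, a repressor of entry into meiosis, gave 2734.5, 2646.4 and 3041.8 on the H4WT arrays and 68.9, 68.6 and 169.9 on the H4del arrays. Its log2 change was -4.67 ± 0.29 (SE, limma adjusted p = 7.9e-08). FAR1, which arrests the cell cycle in response to pheromone, went from 4705.6, 4928.9 and 1174.4 to 94.1, 90.7 and 74.7, or -4.88 ± 0.42. HO, the endonuclease of mating-type switching, went from 2114.2, 2799.1 and 654.6 to 98.7, 119.9 and 86.3, or -3.76 ± 0.44. H4WT replicate 3 was the lowest wild-type array for FAR1 and HO, and without it the changes were -5.55 and -4.38. NEJ1, a factor of nonhomologous end joining, had -2.87 ± 0.28, and AXL1, a protease that matures a-factor and marks haploid bud sites, had -1.55 ± 0.25. RDH54, a DNA translocase of recombination that is in none of the lists, went from 1959.1, 1910.1 and 1365.9 to 345.8, 378.4 and 423.6, or -2.13 ± 0.22 (adjusted p = 1.71e-05).

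**Figure D1:**
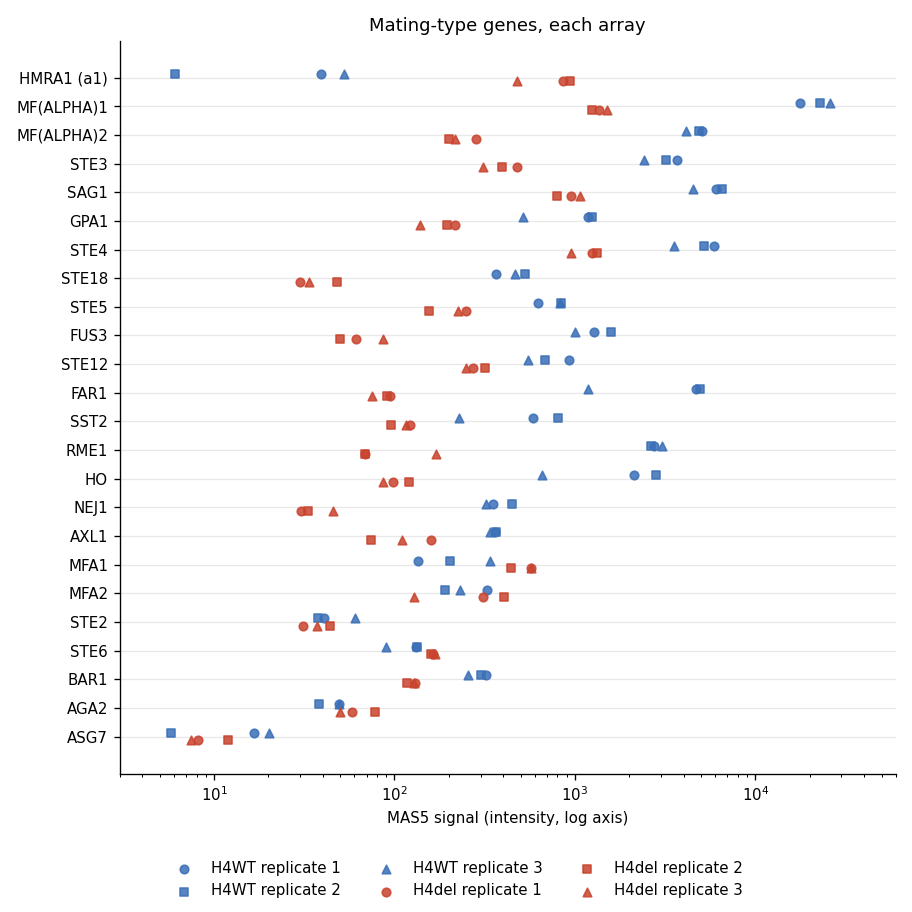
Signal of each H4WT array (blue) and each H4del array (red) on a log axis for HMRA1, the 4 alpha-specific genes, the 12 haploid-specific genes and the 7 a-specific genes. Marker shapes give the replicate number. HMRA1 lies higher in H4del, the alpha-specific and haploid-specific genes lie lower without overlap, and the a-specific genes share no direction.

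The a-specific genes, which alpha cells keep off, did not move as a group. Of 7 measured 4 were tested and 1 passed. MFA1, an a-factor gene, rose by 1.25 ± 0.35 on the log2 scale (SE, limma adjusted p = 0.0245), from 134.4, 203.5 and 336.5 to 569.4, 440.1 and 569.6. Without H4WT replicate 1 its adjusted p was 0.115, without H4WT replicate 2 0.0721, without H4del replicate 1 0.0736 and without H4del replicate 3 0.0691, and its other probe set gave -0.01. BAR1, the protease that degrades alpha-factor, had a log2 change of -1.13 ± 0.41 (limma adjusted p = 0.0736, and 0.00782 with the replicate block), with 323.5, 302.4 and 256.2 against 130.0, 117.8 and 127.6. STE2, the receptor for alpha-factor, was below the filter in both groups, at 46.3 ± 12.3 (SD, n = 3) and 37.6 ± 6.45.

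Genes that pheromone induces were lower in part. Of 16 tested 6 fell and 0 rose, with a median log2 change of -0.550, against 11.0% of all genes falling, and 4 to 6 fell with 1 array left out. AGA1, the anchor subunit of a-agglutinin, went from 4044.3, 3670.1 and 2998.8 to 891.3, 804.3 and 681.8, a log2 change of -2.15 ± 0.27 (SE, limma adjusted p = 0.000144). PRM1, a membrane protein of cell fusion, had -1.87 ± 0.32, KAR4, a transcription factor of karyogamy, had -1.62 ± 0.26, and FUS1, needed for cell fusion, had -1.40 ± 0.28. The groups did not overlap for these 4 genes. Of 19 tested genes of cell separation and the M/G1 phase 3 fell, 1 rose and 15 did not pass, and of 12 cyclin genes 3 fell and 9 did not pass. Over all genes 11.0% fell and 4.53% rose. With 1 array left out 3 genes of the first list and 2 or 3 of the second fell. Of the 3 in the first list RME1 was counted above among the haploid-specific genes. TEC1, the partner of STE12 at filamentation genes, fell by 1.76 on the log2 scale and AMN1, which acts at the exit from mitosis, by 1.56. In the second list the G1 cyclin gene PCL1 fell by 1.43.

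The transcripts OLI1 and COX1 of the mitochondrial genome were at the floor of the scale in H4del, while 14 of the 19 measured genes of that genome did not pass. The mitochondrial genome encodes core subunits of the respiratory chain and of the ATP synthase, and yeast cells without it survive by fermentation. OLI1, which encodes subunit 9 of the ATP synthase, gave 6413.6, 1173.7 and 9736.8 on the H4WT arrays and 4.0, 1.9 and 1.1 on the H4del arrays. COX1, the largest subunit of cytochrome c oxidase, gave 1893.6, 1181.2 and 4288.6 against 4.8, 4.1 and 4.6. The groups were far apart for both genes, and the log2 changes were -7.78 ± 0.75 (SE, limma adjusted p = 9.85e-06) and -6.65 ± 0.48 (adjusted p = 3.33e-07). Since 16.9 was added to each signal before the log was taken, these changes understate the ratio of the signals. Without H4WT replicate 2 the change of OLI1 was -8.69, and without H4WT replicate 3 it was -7.17. In H3del the changes were 0.12 and 0.36, and the difference between the deletions was -7.90 ± 0.99 (adjusted p = 0.000424) for OLI1 and -7.01 ± 0.64 (adjusted p = 2.06e-05) for COX1.

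Of the 31 listed mitochondrial genes 19 had a separate probe set, and OLI1 and COX1 were the 2 that passed the filter. In the fit of all probe sets 5 of 19 fell and 0 rose, against 9.76% and 5.32% of all genes (15.1% in either direction). COX3, a further oxidase subunit, went from 106.4, 47.9 and 50.1 to 6.6, 6.1 and 1.9, with a log2 change of -1.91 ± 0.30 (SE, limma adjusted p = 0.000979). COX2 went from 46.6, 24.2 and 26.9 to 4.7, 4.6 and 8.2, and COB, cytochrome b, from 77.8, 16.1 and 52.3 to 2.1, 11.1 and 0.7. All 3 lay lower on each H4del array than on each H4WT array. ATP6 had 78.4, 3.1 and 38.7 against 2.0, 6.4 and 0.7, and its groups overlapped through H4WT replicate 2. The other 13 genes were dim in both groups and did not pass, with log2 changes in that fit from -0.63 to 0.18. Other probe sets of COX1 gave -1.04 and -1.08, and the other of OLI1, which was not called, gave 0.51.

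**Figure D2:**
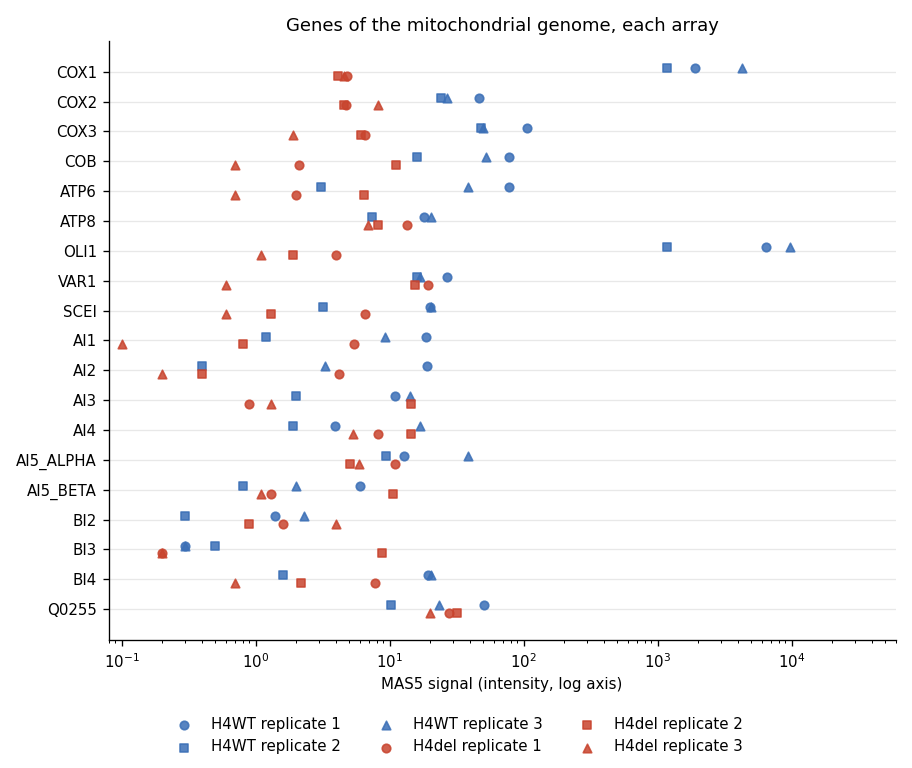
Signal of each H4WT array (blue) and each H4del array (red) on a log axis for 19 genes of the mitochondrial genome. OLI1 and COX1 are at 1173.7 or above on every H4WT array and at or below 4.8 on every H4del array, COX2, COX3 and COB are separated at lower signal, and the rest overlap or are dim throughout.

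Nuclear genes encode the remaining subunits of the same machinery. Of 27 nuclear genes of the respiratory chain 6 fell and 0 rose, with a median log2 change of -0.294. COX4, a subunit of cytochrome c oxidase, went from 1738.1, 1708.5 and 2691.0 to 749.0, 653.9 and 879.0, a log2 change of -1.39 ± 0.23 (SE, limma adjusted p = 0.00123), and COX5A had -1.27 ± 0.27. Of 16 nuclear genes of the ATP synthase 5 fell and 0 rose, with a median of -0.534, among them ATP16, the delta subunit of the catalytic part (-1.30 ± 0.20), and ATP3, the gamma subunit (-0.86 ± 0.18). With the replicate block 10 and 9 members of these lists fell, against 21.5% of all genes. With 1 array left out 3 to 6 fell in the respiratory chain (3 without H4del replicate 1 or 2) and 3 to 5 in the ATP synthase (3 without H4WT replicate 1 or 2 or H4del replicate 2). The share over all genes was 11.0%. Of 55 genes of the mitochondrial ribosome 5 rose and 0 fell against 4.53% of all genes rising, with a median of 0.196. With the replicate block 13 rose and 1 fell, against 8.92% and 21.5% of all genes, and without H4del replicate 2 or 3 the number risen was 3. MRPL31, a protein of the large subunit, rose by 1.34 ± 0.23 from 1342.5, 1602.7 and 959.3 to 3625.5, 2975.7 and 3188.0.

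The retrograde response raises a set of nuclear genes when respiration fails. Of its 12 tested genes 3 rose and 1 fell, with a median log2 change of 0.178, against 4.53% and 11.0% of all genes. In H3del 3 of the same 12 rose and 0 fell, with a median of 0.282, where 5.21% of all tested probe sets were higher and 2.46% lower. CIT2, the peroxisomal citrate synthase and the usual reporter of that response, went from 1592.8, 2556.2 and 4004.8 to 8381.3, 5528.1 and 8380.5, a log2 change of 1.52 ± 0.30 (SE, limma adjusted p = 0.00414). ACO1, aconitase, had 0.95 ± 0.20, and 0.82 in H3del (limma adjusted p = 0.00566). DLD3, a lactate dehydrogenase, had 1.08 ± 0.27 but did not pass without H4WT replicate 1 (adjusted p = 0.0705) or H4del replicate 1 (0.0538). RTG2, the sensor protein of the pathway, had -0.83 ± 0.23 and did not pass without H4WT replicate 1, H4WT replicate 2, H4del replicate 2 or H4del replicate 3 (adjusted p = 0.1, 0.0543, 0.082 and 0.0724). The difference between H4del and H3del did not pass for CIT2 (adjusted p = 0.0804), whose change in H3del was 0.22. PDR3, an activator of drug resistance genes, rose by 1.01 ± 0.21, whereas the brightest probe set of its target PDR5, an efflux pump, gave -0.02 (adjusted p = 0.972). MPC3, a subunit of the mitochondrial pyruvate carrier, went from 39.2, 59.9 and 172.7 to 539.3, 432.1 and 700.0 (2.59 ± 0.36), and PUT1, proline oxidase, had 2.14 ± 0.47, or 1.45 without H4del replicate 2.

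Small nucleolar RNAs, which guide the modification of ribosomal RNA, were higher in H4del almost throughout. Of 24 tested 18 rose and 0 fell, the remaining 6 also had positive values, and the median log2 change was 1.40, against 4.53% of all genes rising. In the fit of all probe sets 39 of 56 rose, against 5.32% of all genes. With 1 array left out 12 to 19 rose in the filtered fit. The number was 12 without H4del replicate 3 and 14 without H4WT replicate 1 or 2 or H4del replicate 2. SNR128 gave 212.7, 222.8 and 185.9 on the H4WT arrays and 990.6, 942.2 and 1955.2 on the H4del arrays, a log2 change of 2.47 ± 0.31 (SE, limma adjusted p = 0.000144). SNR5 went from 252.2, 177.5 and 228.4 to 1044.3, 847.1 and 673.4, and SNR71 from 155.2, 101.6 and 140.2 to 491.0, 429.1 and 511.6. All H4del arrays lay above all H4WT arrays for these genes. The difference from the H3del effect passed for 5 of the 24, against 3.53% of all genes, and the median in H3del was 0.367. Probe sets for ribosomal RNA moved with them: 8 of 10 control probe sets were higher in H4del without overlap, with a median log2 difference of 2.52, and their mean log2 signal was 9.46, 7.83 and 9.41 on the H4WT arrays and 10.54, 11.23 and 11.51 on the H4del arrays. RDN18-1, a gene of the small ribosomal RNA, had 168.2, 11.3 and 129.3 against 556.2, 729.0 and 1643.1, with a log2 change of 3.29 ± 0.67, or 2.44 without H4WT replicate 2. It passed in the 3 fits that left out an H4WT array. Without any 1 of the H4del arrays it was under the filter, so it was tested only through the group where it was high. The part of non-polyadenylated RNA in the labelled samples was not tested. Among protein genes of ribosome assembly 3 of 58 fell and 0 rose, or 12 fell with the replicate block, 10 without H4WT replicate 3 and 0 without any other single array. Among cytosolic ribosomal proteins 1 of 30 rose and 2 fell, or 5 and 2 with the block and without H4WT replicate 3, and at most 2 and 1 without any other. For both lists the shares over all genes were 11.0% fallen and 4.53% risen, or 21.5% and 8.92% with the block.

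Genes of meiosis and sporulation, which are off in growing haploid cells, were higher in part. Of 13 tested 6 rose and 0 fell, with a median log2 change of 0.930. In the fit of all probe sets 10 of 29 rose against 5.32% of all genes. Dim probe sets annotated to 1 gene were higher more often, at 11.4% and 11.1% in the dimmest bin described below and the next. The list was also higher in H3del, where 7 of the same 13 rose and 0 fell, with a median of 0.881. In the fit of all probe sets 15 of 29 rose there. Of all probe sets, 5.21% of those tested and 5.66% without the filter were higher in H3del. The difference between the deletions passed for 2 of the 13, against 3.53% of all genes. These were SPO11 and SPS2 (-1.89, H4 effect minus H3 effect). SPO11, the nuclease that starts meiotic recombination, gave 73.2, 59.2 and 39.7 on the H4WT arrays and 284.8, 394.5 and 287.0 on the H4del arrays, a log2 change of 2.20 ± 0.21 (SE, limma adjusted p = 1.01e-05). It gave -0.10 in H3del, and the difference passed (adjusted p = 0.000373). SPO75 went from 90.6, 91.2 and 78.1 to 477.7, 683.1 and 484.8, or 2.43 ± 0.21, and gave 3.13 in H3del. SGA1, a glucoamylase of sporulation, had 1.12 ± 0.24. With 1 array left out 3 to 5 members of the list passed, with 3 without H4WT replicate 2, H4del replicate 1 or H4del replicate 2.

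Higher signal at the dim end was not particular to named lists. Probe sets were placed in 5 equal bins by their mean signal on the H3WT arrays, which take no part in the contrast's means. In the fit of all 9275 probe sets 8.87% were higher and 6.73% lower in H4del, and the counts that follow are from that fit. In the dimmest bin 232 of 1855 were higher (12.5%) and 7 were lower (0.377%), with a median log2 change of 0.31. In the next bin 269 were higher (14.5%) and 24 lower (1.29%). In bin 4 the balance was the other way, with 76 higher (4.10%) and 243 lower (13.1%) and a median of -0.23. The 2443 probe sets with no annotated gene gave 424 higher and 35 lower. Of the 2783 probe sets under the filter 346 were higher and 19 lower. The lower quartile of signal given above moved with these counts, and its part in them was not tested. In H3del the dimmest bin had 154 higher and 3 lower, where 7.44% of all 9275 passed, 5.66% higher and 1.78% lower.

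**Figure D3:**
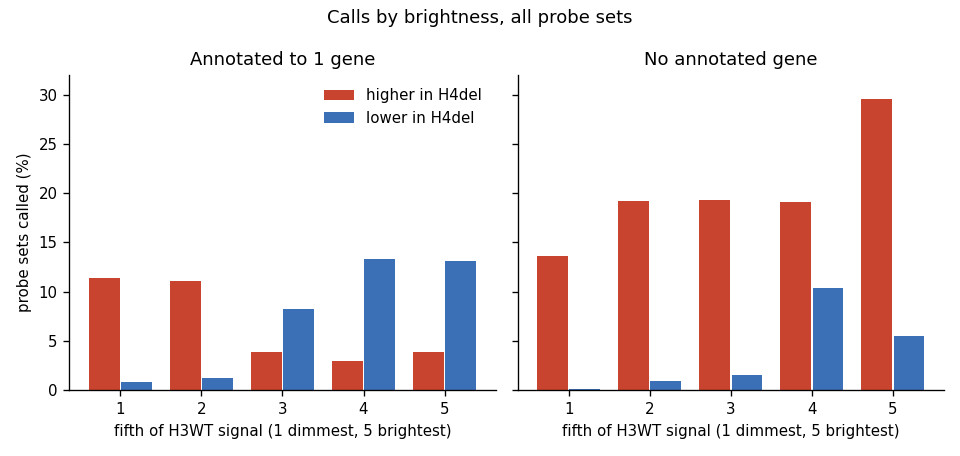
Percent of all probe sets called higher (red) or lower (blue) in H4del, by bin of mean H3WT signal, for probe sets annotated to 1 gene (left) and to none (right). Among annotated probe sets the higher calls lead in the dimmest bin (11.4% against 0.791%) and the lower calls in the brightest (3.93% against 13.1%), while among probe sets without a gene the higher calls (13.6% to 29.5%) outnumber the lower calls (0.17% to 10.4%) in every bin.

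Chromosome ends, where silent chromatin spreads in wild-type yeast, held higher calls near the tip. Among the 5 outermost protein-coding genes of each chromosome arm, by the R64 gene order, 8 of 47 tested rose (17%) and 4 fell (8.51%), with a median log2 change of 0.25. Among genes beyond the 40 outermost 147 of 4046 rose (3.63%) and 429 fell (10.6%), with a median of -0.16. The places 6 to 10 gave 9 risen (8.04%) and 15 fallen (13.4%) of 112, and the places 11 to 20 gave 14 risen (5.43%) and 32 fallen (12.4%) of 258. The H3 deletion raised 17 of the same 47 (36.2%), against 3.46% of the genes beyond the 40 outermost. In the fit of all probe sets, dim probe sets annotated to 1 gene were higher at 11.4% in the dimmest bin and 11.1% in the next. The part of brightness in the counts at chromosome ends was not tested. YFR057W, the outermost gene of its arm, gave 2.3, 1.3 and 1.7 on the H4WT arrays and 64.8, 71.1 and 69.7 on the H4del arrays (log2 change 2.19 ± 0.22 in the fit of all probe sets, limma adjusted p = 2.02e-05). COS8, a member of a subtelomeric family with similar copies whose transcripts can share probes, went from 2295.7, 3639.0 and 2583.4 to 8908.3, 7389.7 and 7527.3, or 1.50 ± 0.23. SEO1, a permease gene near an end, went the other way, from 675.1, 780.1 and 520.6 to 163.2, 203.3 and 223.7 (-1.65, adjusted p = 0.000855). YFR057W and SEO1 were singled out after their values were seen.

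Lists of biosynthetic genes differed in how many members fell, against 11.0% of all genes. Of 16 genes of purine and one-carbon metabolism 9 fell and 0 rose, with a median log2 change of -0.754 and a negative value in all 16. GCV1, a subunit of the glycine cleavage complex, went from 5036.5, 7235.4 and 4773.1 to 2079.9, 1652.2 and 2235.7, a log2 change of -1.49 ± 0.25 (SE, limma adjusted p = 0.00141), and ADE12, adenylosuccinate synthase, had -0.76 ± 0.14. The number called was 2 without H4WT replicate 2 or H4del replicate 3, 3 without H4WT replicate 1 or H4del replicate 2, 9 without H4del replicate 1 and 14 without H4WT replicate 3. Of 22 genes of sulfate assimilation and methionine synthesis 9 fell and 0 rose, with a median of -0.553. MET10, a subunit of sulfite reductase, went from 3295.0, 2840.8 and 2282.9 to 1726.4, 1264.6 and 1152.1, or -1.02 ± 0.22. In that list 2 to 6 passed with 1 array left out (2 without H4WT replicate 1, 3 without H4WT replicate 2 or H4del replicate 2, 4 without H4del replicate 1, 5 without H4WT replicate 3), and 5 passed with arrays centred on the median.

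The shares over all genes were 11.0% fallen and 4.53% risen, or 21.5% and 8.92% with the replicate block, and several of the following lists were near them. Of 11 zinc-regulated genes 4 fell and all 11 had negative values, with a median log2 change of -0.819, and 2 fell without H4WT replicate 2. IZH2, a membrane receptor homologue, had -0.99 ± 0.20, and FET4, a low-affinity metal transporter, -0.95 ± 0.21. ZPS1 went from 18009.8, 21782.9 and 26664.1 to 14140.5, 9979.2 and 1888.5, so that H4del replicate 3 was far below the others. Its change of -1.76 ± 0.49 was -0.88 without that array, and its adjusted p was 0.0650 without H4WT replicate 2. Of 23 ergosterol genes 5 fell and 0 rose, or 11 and 1 with the replicate block, 8 and 0 without H4WT replicate 3, 3 without H4WT replicate 1 and 2 without H4WT replicate 2 or H4del replicate 3. One of them was ERG12, mevalonate kinase, at -0.95 ± 0.22 (SE, limma adjusted p = 0.00883). LYS9, a lysine synthesis gene, fell by 1.40 on the log2 scale, from 3921.1, 4392.6 and 3361.1 to 1465.0, 1304.6 and 1619.6, while the 42 tested genes of amino acid synthesis gave 1 risen and 4 fallen with a median of -0.026 (2 fallen without any 1 of the first 5 arrays, H4WT replicate 1 to H4del replicate 2). Of 30 heat shock and stress genes 5 fell and 2 rose, or 9 and 5 with the replicate block. The number fallen was 3 without H4WT replicate 1 or H4del replicate 1, 2 without H4WT replicate 2 or 3 and 1 without H4del replicate 2. The list was led by HSP26, a small chaperone, from 4107.9, 3773.7 and 6065.2 to 1809.1, 975.6 and 2254.4 (-1.51 ± 0.29). Glycolysis gave 1 risen of 18, with 6 without H4WT replicate 3 and 0 without any other single array. The proteasome gave 2 fallen of 34, or 7 with the replicate block, 4 without H4WT replicate 3 and 0 to 2 without any other.

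Of 15 tested genes of gluconeogenesis and the glyoxylate cycle 5 rose and 2 fell, and of 12 of peroxisomal fatty acid oxidation 4 rose and 2 fell, against 4.53% and 11.0% of all genes, so neither list moved one way. Without H4WT replicate 2 the first list had 2 risen, and without H4del replicate 1 or 2 it had 3. The second had 1 risen without H4del replicate 1 and 2 without H4WT replicate 1 or 2 or H4del replicate 3, and both had 1 fallen without H4WT replicate 1 or H4del replicate 2. CRC1, a carnitine transporter of mitochondria, rose by 1.31 ± 0.24 on the log2 scale (SE, limma adjusted p = 0.00283), and JEN1, a lactate permease, by 1.10 ± 0.25. MDH3, the peroxisomal malate dehydrogenase, fell from 3121.8, 2902.1 and 3262.4 to 1396.2, 1050.3 and 1505.6 (-1.24 ± 0.18). SNO1, of vitamin B6 synthesis, rose from 618.7, 647.4 and 546.5 to 3695.2, 2674.2 and 3685.6 (2.43 ± 0.22), whereas its neighbour SNZ1 gave 0.57 ± 0.21 (adjusted p = 0.0699, and 0.0296 with the replicate block). TNA1, the importer of nicotinic acid, rose from 3437.0, 2220.4 and 3613.6 to 9379.9, 9430.5 and 9608.2 (1.64 ± 0.20). HXT4, a glucose transporter, fell from 8919.9, 7919.8 and 11445.4 to 2726.3, 2146.6 and 3608.7 (-1.75 ± 0.39).

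**Figure D4:**
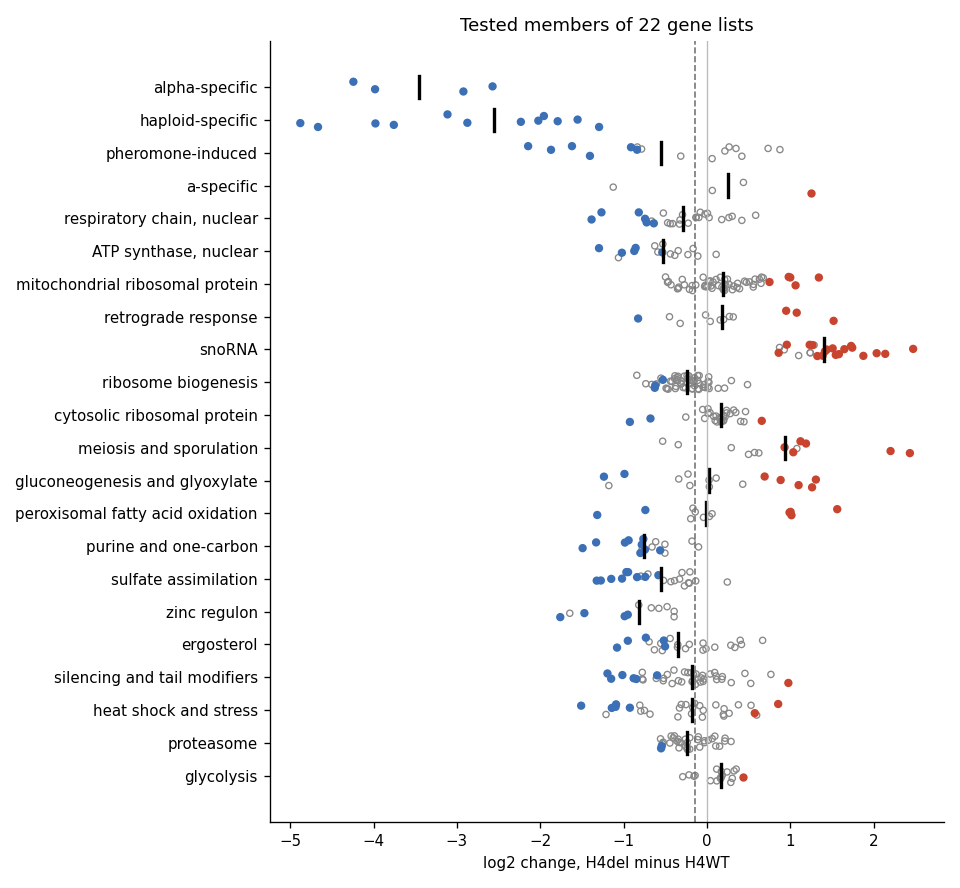
Log2 change (H4del minus H4WT) of each tested member of 22 gene lists. Filled points passed the limma threshold (red higher, blue lower), open points did not, black bars are list medians and the dashed line is the median of all genes, -0.149. The alpha-specific and haploid-specific lists lie wholly to the left, and the small nucleolar RNAs wholly to the right.

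Genes for the enzymes and proteins that act on histone tails, or form silent chromatin, mostly did not pass. Of 42 tested 6 fell and 1 rose, with a median log2 change of -0.176. Over all genes 11.0% fell and 4.53% rose, shares near those of the list. With the replicate block 9 fell and 3 rose, and 3 fell without H4WT replicate 1. The members named next are the ones the naming rule gave or that form silent chromatin. The silencing genes SIR2, SIR3 and SIR4 gave -0.05, 0.09 and -0.42, with adjusted p of 0.911, 0.830 and 0.276. EAF3, a subunit of the NuA4 acetyltransferase that modifies H4, went from 4730.7, 4521.0 and 4360.1 to 2365.5, 2416.5 and 1340.0, a log2 change of -1.19 ± 0.20 (SE, limma adjusted p = 0.00167). HAT2, of an acetyltransferase for free H4, had -1.02 ± 0.18, and GCN5, the acetyltransferase of the SAGA complex, -0.85 ± 0.20. SAS4, of a complex that acetylates lysine 16 of H4, rose by 0.98 ± 0.21, from 394.1, 516.3 and 465.1 to 1123.0, 874.6 and 772.7. In H3del SAS4 gave 1.22 (limma adjusted p = 0.00044), and the difference between the deletions did not pass (adjusted p = 0.65). Of the 5 histone genes with a separate probe set HHO1, linker histone H1, had -0.87 ± 0.23 and HTZ1, the variant H2A.Z, -0.70 ± 0.23 (adjusted p = 0.0178 and 0.0495). HHO1 did not pass without H4WT replicate 2 (0.0754) or H4del replicate 1 (0.0728). HTZ1 passed without H4WT replicate 3 and did not with any other array left out (0.0619 to 0.203). HTB1, HTB2 and CSE4 did not pass.

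The same test asked whether the H4 deletion's effect differed from that of the H3 deletion, measured on arrays the 2 comparisons do not share. The difference passed for 239 of 6492 probe sets (3.68%; 1.28% higher, 2.40% lower) and 181 of 5121 genes (3.53%; 0.898% higher, 2.64% lower). With the replicate block it passed for 1056 probe sets, and with 1 array left out for 117, without H4del replicate 2, to 469, without H4WT replicate 3. Without H4WT replicate 1, H4WT replicate 2 or H4del replicate 1 it passed for 131, 132 and 125. Of the 12 haploid-specific genes 8 differed, all lower in the H4 comparison: RME1 (-4.67 against -0.62, difference -4.04 ± 0.38, adjusted p = 2.53e-05), FUS3 (-3.98 against -0.72), STE18 (-3.11 against -0.34), NEJ1 (-2.87 against -0.06), FAR1 (-4.88 against -2.03), STE4, STE5 and AXL1. Of the alpha-specific genes MF(ALPHA)1 differed (-3.98 against -0.24, difference -3.74 ± 0.20, adjusted p = 3.32e-08). The changes of MF(ALPHA)2, STE3 and SAG1 were -4.24, -2.92 and -2.57 in the H4 comparison and -3.55, -2.40 and -2.47 in the H3 comparison.

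Several genes moved in opposite directions. FDH1, a formate dehydrogenase, fell by 1.11 on the log2 scale in H4del (1693.8, 1479.9 and 1438.7 against 682.7, 665.6 and 757.7) and gave 3.46 in H3del (difference -4.57 ± 0.27, limma adjusted p = 4.81e-08). Its probe set is of a kind shared by similar sequences, and its other probe sets gave 0.66 and -0.84 in H4del. MLS1, malate synthase, gave -0.99 in H4del and 2.30 in H3del (difference -3.29 ± 0.35), and its fall did not pass without H4WT replicate 1 (adjusted p = 0.0859) or H4del replicate 2 (0.0942). MRPL31 gave 1.34 and -0.80, with a difference of 2.14 ± 0.30. TIR4, a cell wall mannoprotein of anaerobic growth, gave -1.30 and 0.66. Among all probe sets 111 were called higher in both deletions, or 21.9% of the H4 calls and 32.8% of the H3 calls, and 52 lower, or 8.28% and 32.5%, whereas 3 higher and 11 lower in H4del were called the other way in H3del. The H3 deletion alone gave calls in 7.67% of probe sets, 5.21% higher and 2.46% lower. The rises of SPO75, SNO1 and MPC3 in H4del stood beside 3.13, 2.60 and 2.35 in H3del.

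**Figure D5:**
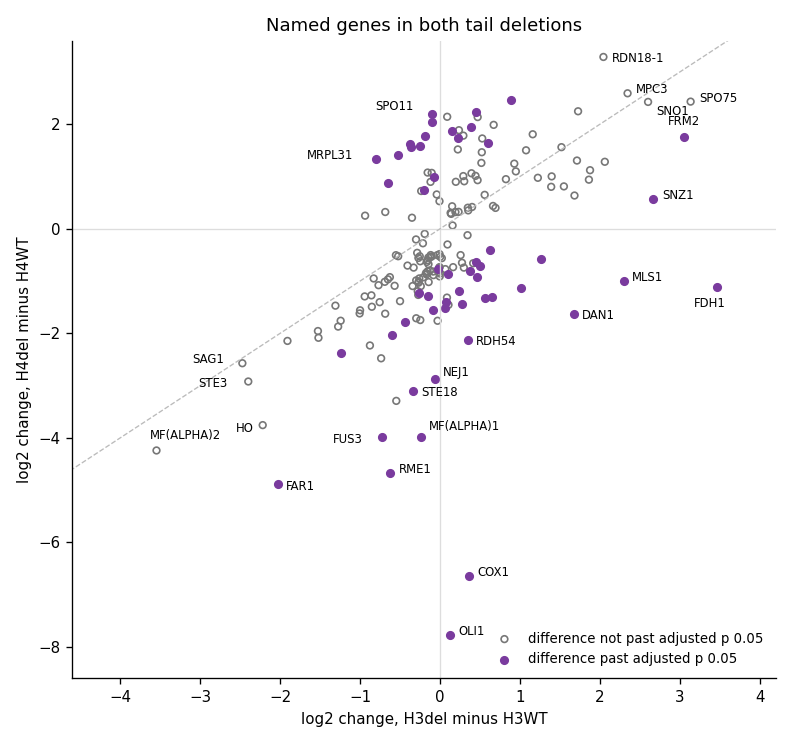
Log2 change in H4del (vertical) against log2 change in H3del (horizontal) of the named genes that were tested. Filled points passed the limma test of the difference, open points did not, and the dashed line marks equal change. OLI1 and COX1 lie far below the line at changes near 0 in H3del, the haploid-specific genes lie below it, and FDH1 and MLS1 lie at the lower right.

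The rule that took the 20 largest changes each way named further genes outside the lists. IRC18, a gene of unclear role, rose from 778.4, 881.3 and 379.1 to 2868.8, 3191.9 and 1889.6 (log2 change 1.99 ± 0.45, SE, limma adjusted p = 0.00864). FRM2, a nitroreductase, rose from 1077.0, 873.7 and 1228.0 to 3960.9, 2815.2 and 4205.1 (1.76 ± 0.21) and gave 3.05 in H3del. PEX27, a peroxisomal membrane protein, rose by 1.78 ± 0.35. All 3 were without overlap between the groups. YOR387C fell from 5038.2, 7681.6 and 8541.3 to 1435.9, 667.7 and 338.9 (-3.29 ± 0.93) but did not pass without H4WT replicate 2, H4del replicate 2 or H4del replicate 3 (adjusted p = 0.0726, 0.0688 and 0.0892). YDR222W fell from 861.1, 894.7 and 1799.8 to 266.7, 253.6 and 230.9 (-2.09 ± 0.33). YDR034C-A had -2.48 ± 0.57 for its brightest probe set, or -3.17 without H4del replicate 2 and -1.88 without H4del replicate 3, while its other probe sets gave from -1.28 to 1.74, so no direction is given for it.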

How the data were processed

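The deposited values are MAS5 signal intensity on a linear scale from Affymetrix YG_S98 arrays of total RNA, with MAS5 named, without a version, per the submitters' processing notes. A 2% trimmed mean of the 6 arrays lay between 1497.8 and 1502.5, so they were not rescaled. The deposited scanner records gave the hybridization day (unit: other). An offset of 16.9, the signal at percentile 10, was added before log2, and probe sets at or under the 30th percentile of mean log2 signal were left out. limma 3.58.1 in R 4.3.3 (lmFit, eBayes with a trend) fitted 4 group means over 14 arrays with 10 residual degrees of freedom, with Benjamini-Hochberg adjustment across all tested probe sets (threshold 0.05). The brightest probe set stood for a gene; of 9275, 6504 had 1 annotated gene, 328 had several and 2443 had none. Deviations from group means correlated at 0.303, 0.278 and 0.520 between H4WT and H4del arrays of the same replicate number, so that number was also fitted as a block, within the H3 and within the H4 strains (5 residual degrees of freedom). The block was thus chosen from these same data, and correlations between arrays of unlike number are not given. H4WT and H4del replicate 2 were hybridized on different days and stations, so neither labels nor days show that they were paired. On simulated data for this contrast, over 6492 probe sets, 54% of 2-fold and 95% of 4-fold changes were recovered, with 7 false of 156 calls. The simulated noise was independent between arrays, few probe sets were changed and the dim end was not shifted. The false calls therefore do not give the rate among the real calls. Named genes were the 20 largest called changes each way without overlap, all members of the cell-type, mitochondrial, histone and marker lists, the 4 lowest adjusted p in every further list, and the 8 largest differences from the H3 effect each way. HHF1 and HHF2, the alpha1, alpha2, neighbour and chromosome-end genes, SIR2, SIR3, SIR4 and PDR5 are added. The members and lists were chosen with earlier results of these data known. Tables and figures used python 3.11.15, numpy 2.4.6, pandas 2.3.3 and matplotlib 3.10.9.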

Additional observations from a re-analysis of the deposited data

Results flagged for a closer look

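The effect of the H4 deletion differed from that of the H3 deletion, by limma's test of the difference itself, in 52 of the named genes, against 3.53% of all genes. The naming rule took the 8 largest differences each way, so part of these genes were chosen for the difference itself, and their number is no result. Each value that follows is that difference on the log2 scale, H4 effect minus H3 effect, so that a negative value is a lower effect in the H4 comparison. Among haploid-specific genes the differences were RME1 -4.04, FUS3 -3.26, FAR1 -2.85, NEJ1 -2.81, STE18 -2.77, AXL1 -1.47, STE4 -1.43 and STE5 -1.35. Among other mating genes the differences were MF(ALPHA)1 -3.74, AFB1 -1.14 and BAR1 -2.14. RDH54, which is in none of the lists, had -2.47, and the G1 cyclin gene PCL1 had -1.71. Among mitochondrial genes the differences were OLI1 -7.90, COX1 -7.01, ATP16 -1.15, ATP18 -0.98, MRPL31 2.14, MRP20 1.08 and MRPL13 0.95. Among non-coding RNA genes the differences were SNR73 2.14, SNR5 1.72, SNR128 1.59, SNR71 1.51 and RDN5-3 1.78. Of the remaining named genes, those with a lower effect in the H4 comparison were FDH1 -4.57, DAN1 -3.30, MLS1 -3.29, SNZ1 -2.10, TIR4 -1.96, SUL1 -1.88, RNR3 -1.84, HSP26 -1.57, LYS9 -1.47, EAF3 -1.43, GRE1 -1.39, FRM2 -1.29, GRE2 -1.22, THI22 -1.17, RRP5 -1.07, PHO3 -1.03, MDH3 -0.98 and ADE12 -0.74. The change of DAN1 in H4del, -1.63, was -0.82 without H4WT replicate 2 and -2.51 without H4WT replicate 3, and it passed in the second of these fits alone of the 6 that leave out 1 array. Genes with a higher effect were SPO11 2.30, NCA3 2.01, YGL204C 1.97, AIM4 1.94, YET2 1.93, CTO1 1.84, SRD1 1.55, BNA1 1.52 and TNA1 1.04. The strains of the 2 comparisons also differed in plasmid marker and medium, which cannot be told apart from the histone here.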

How the results depend on the processing

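Of 192 named genes under 18 other settings, 3037 of 3390 values kept direction and side of the threshold, 266 lost the call, 87 gained it and 0 changed direction. The number of probe sets called, 1134, was 655 on the H4 arrays alone (304 lower), 1933 with the day block (809 higher, 1124 lower), 2130 with the replicate block (908 and 1222) and 2184 with array quality weights (901 and 1283). Of these 605, 1096, 1134 and 1126 were among the 1134. In the day block H4WT replicate 2, alone on its day, carries no weight in the contrast. With 1 array left out the total ran from 585 to 1498, the higher calls from 274 to 628 and the lower from 305 to 870. Without the filter on dim probe sets 823 were higher, and with a filter at percentile 50 only 296 were. The share of calls that were higher was 56.9% without the filter and 35.6% with that filter. The difference from the H3 effect, called in 239, gave 369 after quantile normalization, 1078 with the day block, 1056 with the replicate block, 1165 with weights and 117 to 469 with 1 array left out. The filter at percentile 50 tested fewer genes and left 7 haploid-specific genes, 1 meiosis gene and 4 small nucleolar RNAs called, against 10 and 39 of the latter lists without a filter and 29 small nucleolar RNAs with a filter on the brightest group. Sulfate assimilation genes numbered 5 after median centring and 2 to 6 with 1 array left out, purine and one-carbon genes 3 on the H4 arrays alone and 2 to 14, and meiosis genes 3 to 5. The cause was not tested. All 4 alpha-specific genes fell in every setting run. The number of arrays and the signal over background limit what can be said of dim probe sets.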
